A study of Mus musculus with 32 samples.

Results

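Mitosis and spindle checkpoint genes were followed in mouse embryonic stem (ES) cells that lost Pou5f1 or Nanog, and in ES cells driven to differentiate with 3 chemicals. The set was 40 genes listed for their work in mitosis, with earlier results of these data known. A gene entered the analysis where a probe was annotated to its symbol alone. On the RNAi arrays 39 of the 40 had such a probe set, among 18193 genes in all. On the two-colour arrays 36 of the 40 had such a probe, among 12034 genes, and all 36 were also on the RNAi arrays. Ccnb1 was not analysed here on either platform, and Cdc20, Espl1 and Smc4 were analysed on the RNAi arrays only.

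Both experiments used E14TG2a, an established line of mouse ES cells. In the first, cells received a pSUPER-puro plasmid, which makes a short hairpin RNA, directed against Pou5f1 (4 arrays) or Nanog (5 arrays), or the parental vector with no hairpin (5 arrays). All 3 groups went through Lipofectamine 2000 and were kept in puromycin at 1 µg/ml, begun 24 h after transfection and held for 3 days, so the control shared the transfection and the drug but carried no hairpin against an unrelated gene. In the second, cells were treated for 2, 4 or 6 days with 0.1 µM retinoic acid (RA), 1% dimethyl sulfoxide (DMSO) or 3 mM hexamethylene bisacetamide (HMBA), and each RNA was hybridised together with RNA of untreated E14 cells. Every treatment and day had 2 arrays with the dyes exchanged, the sample carrying Cy3 on replicate 1 and Cy5 on replicate 2. The untreated RNA was the common partner of all 18 two-colour arrays and counts as 1 control sample, so its own variation is outside every test on these arrays. The labels do not say whether arrays of a group came from separate cultures, and the p-values then measure the spread between arrays.

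Cells enter mitosis when cyclin A and cyclin B activate the kinase Cdk1, helped by the Cdc25 phosphatases and by the Polo and Aurora kinases. Kinetochores then bind spindle microtubules, and any kinetochore that is not attached keeps the spindle checkpoint (Bub1, Bub1b, Bub3, Mad2l1 and Ttk) active, which holds back Cdc20 and the anaphase-promoting complex until separase can be released. ES cells divide fast with a short first gap phase, and most mitotic genes are transcribed late in the cycle from promoters that carry CCAAT boxes, bound by NF-Y, and a cell cycle genes homology region (CHR), bound by the DREAM and MuvB complexes. On bulk arrays, fewer cycling cells and less RNA per cycling cell cannot be told apart.

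Promoters are shown for the members lower in the most comparisons (Bub1, Ttk, Mad2l1, Kif11 and Top2a) and for 2 higher in several (Plk1 and Prc1). The ranking of the lower members holds for the fits that leave out dye orientation. Each runs from 250 bases before to 50 bases after the RefSeq start of the gene, on GRCm38.p6, in the direction of transcription. Capitals mark CCAAT and its reverse complement ATTGG, and the CHR forms TTTGAA and TTCGAA with the reverse complement TTCAAA.
Bub1 (chr2:127831810-127832109, minus strand): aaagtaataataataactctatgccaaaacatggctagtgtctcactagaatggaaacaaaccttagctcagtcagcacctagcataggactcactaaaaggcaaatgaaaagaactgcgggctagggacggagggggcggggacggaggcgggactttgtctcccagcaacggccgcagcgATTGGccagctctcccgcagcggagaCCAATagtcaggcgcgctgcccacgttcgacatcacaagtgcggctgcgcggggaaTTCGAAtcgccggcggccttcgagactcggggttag
Ttk (chr9:83834439-83834738, plus strand): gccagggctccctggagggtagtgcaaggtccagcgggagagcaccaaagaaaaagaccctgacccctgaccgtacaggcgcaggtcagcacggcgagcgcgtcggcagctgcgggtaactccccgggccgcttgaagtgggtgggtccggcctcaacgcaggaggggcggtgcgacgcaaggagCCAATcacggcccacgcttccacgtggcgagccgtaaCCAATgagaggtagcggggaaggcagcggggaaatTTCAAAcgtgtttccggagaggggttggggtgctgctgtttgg
Mad2l1 (chr6:66534971-66535270, plus strand): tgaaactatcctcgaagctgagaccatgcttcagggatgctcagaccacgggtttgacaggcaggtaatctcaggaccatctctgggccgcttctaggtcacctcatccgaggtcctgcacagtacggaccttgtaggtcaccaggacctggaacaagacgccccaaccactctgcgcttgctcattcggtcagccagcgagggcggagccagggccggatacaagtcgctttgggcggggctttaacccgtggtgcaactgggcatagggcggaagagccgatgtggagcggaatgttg
Kif11 (chr19:37376132-37376431, plus strand): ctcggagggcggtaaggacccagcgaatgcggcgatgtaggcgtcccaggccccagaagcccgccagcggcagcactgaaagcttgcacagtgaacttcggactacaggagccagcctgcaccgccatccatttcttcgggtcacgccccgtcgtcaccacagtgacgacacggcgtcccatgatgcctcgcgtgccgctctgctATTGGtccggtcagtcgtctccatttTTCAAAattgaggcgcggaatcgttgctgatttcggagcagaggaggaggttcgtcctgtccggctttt
Top2a (chr11:99024140-99024439, minus strand): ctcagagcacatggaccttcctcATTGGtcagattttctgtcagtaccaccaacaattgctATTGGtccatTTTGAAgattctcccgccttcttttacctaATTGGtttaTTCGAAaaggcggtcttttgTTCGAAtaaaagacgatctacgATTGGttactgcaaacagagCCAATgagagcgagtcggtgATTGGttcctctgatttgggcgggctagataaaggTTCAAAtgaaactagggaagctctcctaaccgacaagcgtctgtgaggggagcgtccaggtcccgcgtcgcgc
Plk1 (chr7:122159185-122159484, plus strand): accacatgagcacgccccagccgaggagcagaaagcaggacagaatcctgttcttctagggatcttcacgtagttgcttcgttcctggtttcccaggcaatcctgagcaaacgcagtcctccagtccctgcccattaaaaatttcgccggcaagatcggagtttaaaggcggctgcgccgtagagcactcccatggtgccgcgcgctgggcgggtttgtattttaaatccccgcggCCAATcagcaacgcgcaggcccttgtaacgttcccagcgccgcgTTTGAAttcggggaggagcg
Prc1 (chr7:80294201-80294500, plus strand): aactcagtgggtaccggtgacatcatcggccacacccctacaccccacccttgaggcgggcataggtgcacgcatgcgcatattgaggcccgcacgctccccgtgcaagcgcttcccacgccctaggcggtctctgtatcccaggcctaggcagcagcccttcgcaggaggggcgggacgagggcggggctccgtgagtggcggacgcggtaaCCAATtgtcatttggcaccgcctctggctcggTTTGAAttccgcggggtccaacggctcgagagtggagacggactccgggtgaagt
Bub1 and Ttk were built alike, with 2 CCAAT boxes before the start and 1 CHR just after it. Kif11 and Prc1 had 1 of each, Plk1 had 1 CCAAT box and 1 CHR around its start, and Top2a had 6 CCAAT boxes and 4 CHR matches. Mad2l1 had none of these letters in its window.

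Of the 40 members, 33 matched a promoter entry. A CCAAT box on either strand was in 25 of them (75.8%), against 39% of 17492 promoters of protein-coding genes cut in the same way, and 2 or more boxes were in 48.5% of members against 13.5%. TTTGAA or TTCGAA, again on either strand, was in 24 members (72.7%) against 18.2% of all promoters. Both motifs lay within 60 bases of each other in 19 members (57.6%), against 4.15% of all. These are matches of letters and say nothing of what binds there. The genes without either motif also included Nusap1, Pttg1 and Plk4, which are described below, and genes with both motifs were found among those that were lower and among those that were higher.

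**Figure D1:**
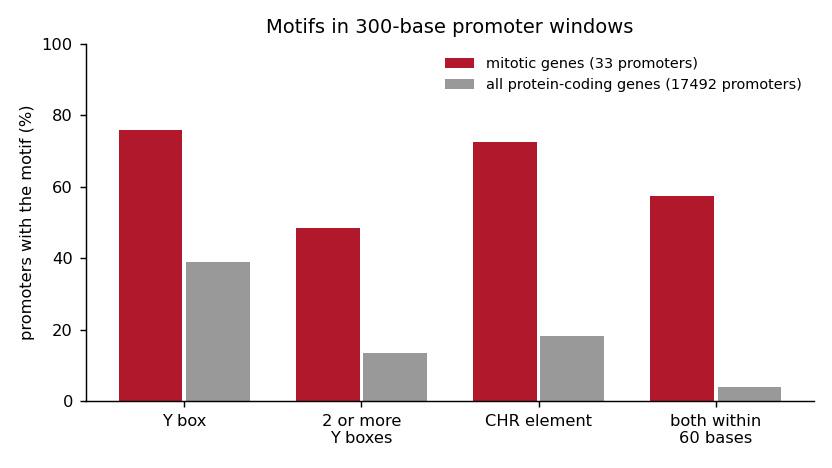
Share of promoters (vertical axis, %) holding a motif in the 300-base window, for the mitotic genes (red) and for all protein-coding genes (grey). The Y box is CCAAT and the CHR element is TTTGAA or TTCGAA. The 2 motifs lay within 60 bases of each other in 57.6% of the 33 mitotic promoters and in 4.15% of all.

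Each targeted gene was lower in its own knockdown than in vector cells. Pou5f1 averaged 9.03 ± 0.22 in Pou5f1 RNAi cells (SD, n = 4) and 11.42 ± 0.09 in vector cells (n = 5), in log2 units of the RMA level. The difference was -2.38 ± 0.10 (SE, limma adjusted p = 1.12e-13). Nanog averaged 9.29 ± 0.15 in Nanog RNAi cells and 11.09 ± 0.08 in vector cells, a difference of -1.81 ± 0.08 (limma adjusted p = 2.1e-12). Of 8 ES cell markers 8 were lower after Pou5f1 RNAi, and 5 were lower after Nanog RNAi. This list includes Pou5f1 and Nanog, so each count holds the gene that was targeted. The level of 8 trophectoderm markers, summed on the linear scale and given in log2, was 14.29 to 14.37 in Pou5f1 RNAi cells and 10.77 to 11.24 in Nanog RNAi cells, against 8.70 to 8.93 in vector cells. All 8 of these markers were higher after Pou5f1 RNAi and 7 were higher after Nanog RNAi, and their part in the results below was not tested. Fibroblast markers summed to 7.30 to 7.56 over all 3 groups. Of these 8, 1 was lower and 1 higher after Pou5f1 RNAi, and 1 was lower after Nanog RNAi. Neural markers summed to 8.20 to 8.30 in Pou5f1 RNAi cells, 7.85 to 8.09 in Nanog RNAi cells and 7.92 to 8.22 in vector cells. Of 4 neural markers, 1 was lower and 2 were higher after Pou5f1 RNAi, and 2 were lower after Nanog RNAi. Of 6 primitive endoderm markers, 4 were lower after Pou5f1 RNAi, 3 were higher after Nanog RNAi and all 6 were lower with Pou5f1 RNAi than with Nanog RNAi. They summed to 7.44 to 7.51 in Pou5f1 RNAi cells and 8.27 to 8.84 in Nanog RNAi cells, against 7.99 to 8.14 in vector cells, and their part in the results was not tested either.

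After Pou5f1 RNAi, 17 of 39 mitotic genes were lower and 5 were higher than in vector cells, at an adjusted p under 0.05 over all probe sets. The 17 made up 43.6% of the members, while 19.5% of all genes were called lower; among genes at least as bright as the dimmest member, 31.4% were. The 5 higher genes were 12.8% of the members, against 20.6% of all genes and 33.5% of those at least as bright as the dimmest member. This background sets a lowest level and is not matched to the members in brightness. The median difference was -0.16 log2 units over the members and -0.04 over all genes. The checkpoint kinases Bub1 and Ttk, the spindle protein Nusap1 and the cytokinesis factor Ect2 fell most, by 1.54-fold to 1.92-fold, while Pttg1, the securin that restrains separase, rose 1.39-fold. Of 7 roles, 5 held both lower and higher genes, while the passenger complex and chromosome structure held lower genes and 0 higher.

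**Figure D2:**
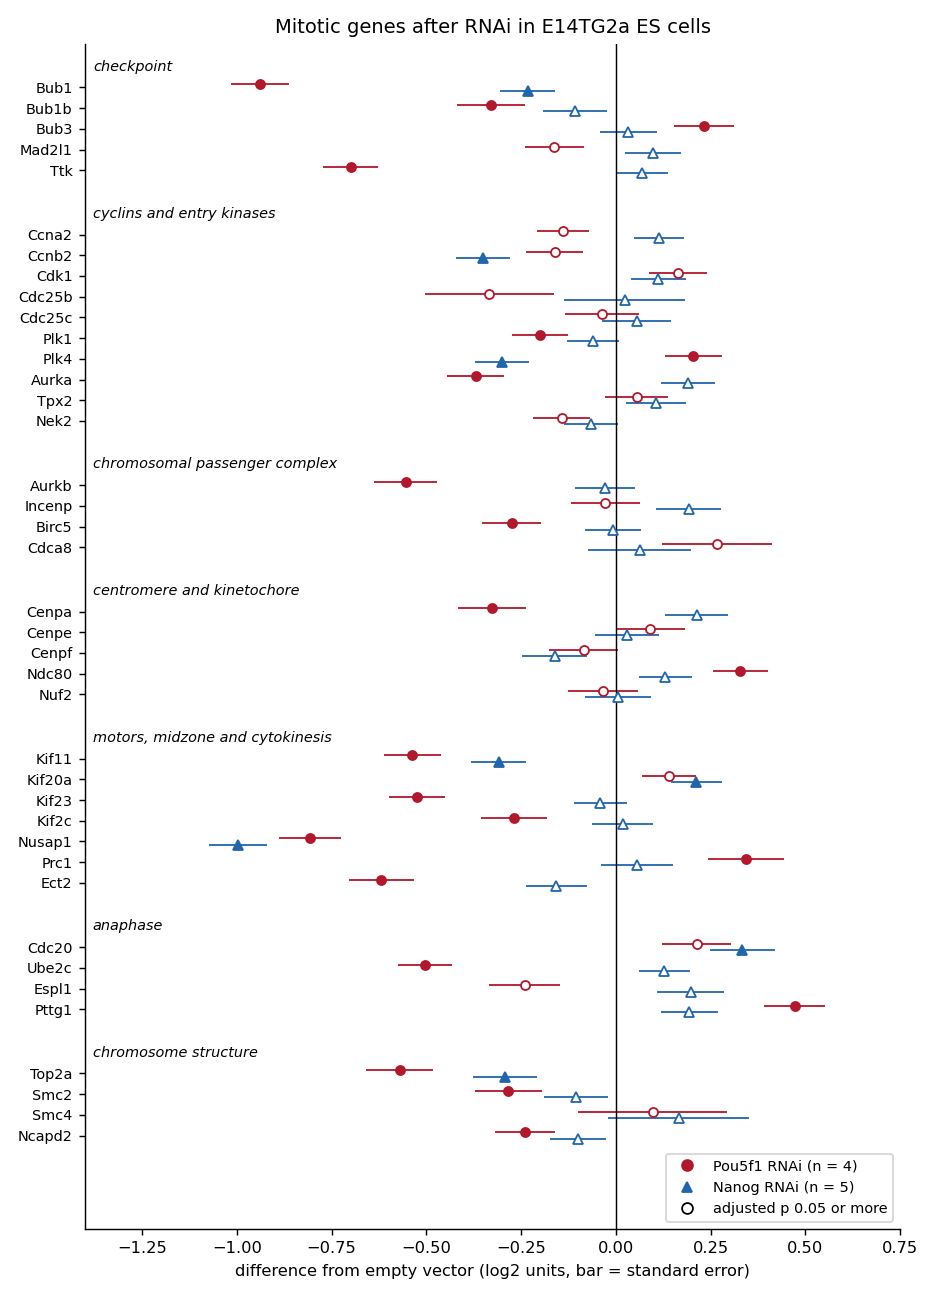
Difference from empty vector (horizontal axis, log2 units, bars are standard errors) for 39 mitotic genes by role, after Pou5f1 RNAi (red circles, n = 4) and Nanog RNAi (blue triangles, n = 5), each against 5 vector arrays. Filled symbols have an adjusted p under 0.05: 22 after Pou5f1 RNAi and 8 after Nanog RNAi.

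In the checkpoint, 3 of 5 genes were lower after Pou5f1 RNAi and 1 was higher. Bub1, the kinase that marks centromeres and brings other checkpoint proteins to kinetochores, had 9.21, 9.40, 9.34 and 9.17 in Pou5f1 RNAi cells, against 10.20, 10.05, 10.25, 10.32 and 10.28 in vector cells. Every Pou5f1 RNAi array lay below every vector array, and the difference was -0.94 ± 0.08 (limma adjusted p = 3.15e-09). Ttk (Mps1), the kinase that starts checkpoint signalling, had 8.26, 8.15, 8.23 and 8.32 in Pou5f1 RNAi cells, against 8.84, 8.85, 8.97, 8.94 and 9.09 in vector cells. Its arrays did not overlap either, and it fell by 0.70 ± 0.07 (limma adjusted p = 1.18e-07). Bub1b (BubR1), part of the complex that inhibits Cdc20, had 9.63, 9.58, 9.57 and 9.45 in Pou5f1 RNAi cells, against 9.66, 9.77, 9.89, 10.04 and 10.08 in vector cells. The groups met at their edges without crossing, and the difference was -0.33 ± 0.09 (limma adjusted p = 0.00634).

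Bub3, which carries Bub1 and Bub1b to kinetochores, went the other way, with 10.92, 10.99, 11.01 and 10.92 in Pou5f1 RNAi cells, against 10.58, 10.60, 10.72, 10.93 and 10.81 in vector cells. A single vector array lay within the range of the Pou5f1 RNAi arrays, and the difference was 0.23 ± 0.08 (limma adjusted p = 0.0282). That call was lost in 7 of 22 other settings, among them the fit of only the 2 groups, the fits without vector replicate 1, 2 or 3 or Pou5f1 RNAi replicate 2 or 3, and the median of all probe sets of the gene, where the difference was -9.95e-05. Mad2l1 (Mad2), the protein that binds Cdc20 when attachment is missing, had 10.28, 10.23, 10.27 and 10.11 in Pou5f1 RNAi cells, against 10.25, 10.28, 10.39, 10.51 and 10.50 in vector cells. The groups overlapped and Mad2l1 did not pass the test, at -0.16 ± 0.08 (limma adjusted p = 0.13).

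Among 10 cyclins and kinases of mitotic entry, 2 were lower and 1 was higher. Aurka, the centrosomal Aurora kinase, had 9.65, 9.68, 9.74 and 9.64 in Pou5f1 RNAi cells, against 9.91, 9.94, 10.06, 10.15 and 10.15 in vector cells, and was lower by a margin that no array crossed. It fell by 0.37 ± 0.08 (limma adjusted p = 0.000531). Plk1, the Polo kinase of entry and spindle assembly, had 9.17, 9.07, 9.21 and 9.20 in Pou5f1 RNAi cells, against 9.35, 9.43, 9.35, 9.33 and 9.36 in vector cells. The arrays were apart, but the difference of -0.20 ± 0.07 was small (limma adjusted p = 0.044), and 13 of 22 other settings no longer called it. Plk4, which starts centriole duplication, was higher by 0.20 ± 0.08 (limma adjusted p = 0.0445), a call that 13 of 22 other settings also lost.

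Cdk1, the kinase that drives mitosis, had 10.77, 10.73, 10.84 and 10.79 in Pou5f1 RNAi cells, against 10.46, 10.56, 10.66, 10.70 and 10.72 in vector cells. Its arrays did not overlap, yet the difference of 0.16 ± 0.08 did not pass the test (limma adjusted p = 0.12). Its partners Ccna2 and Ccnb2 were at -0.14 ± 0.07 and -0.16 ± 0.08, and neither passed. The phosphatases Cdc25b and Cdc25c, the centrosomal kinase Nek2 and the Aurora A activator Tpx2 were not called, with differences between -0.33 and 0.05.

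The chromosomal passenger complex corrects wrong attachments, and 2 of its 4 genes were lower. Aurkb, its kinase, had 7.02, 7.17, 7.21 and 6.90 in Pou5f1 RNAi cells, against 7.67, 7.48, 7.65, 7.70 and 7.67 in vector cells. No array overlapped, and the difference was -0.55 ± 0.08 (limma adjusted p = 1.66e-05). Birc5 (survivin), which docks the complex on centromeric histone, was lower by a smaller amount, -0.27 ± 0.08 (limma adjusted p = 0.00889). The scaffold Incenp was at -0.03 ± 0.09. Cdca8 (borealin) was at 0.27 ± 0.15 without passing (limma adjusted p = 0.19), and its vector arrays split, with 9.73, 9.92 and 9.84 on replicates 1 to 3 and 10.39 and 10.45 on replicates 4 and 5.

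At the centromere and kinetochore, Cenpa, the histone that marks centromeres, was lower at -0.33 ± 0.09 (limma adjusted p = 0.0064). Its level was 9.77, 9.79, 9.86 and 9.74 in Pou5f1 RNAi cells, against 9.99 to 10.28 in vector cells (median 10.05), with no overlap. With the median of all its probe sets the difference was -0.03 and the call was lost (adjusted p = 0.876). Ndc80, the microtubule-binding subunit of the outer kinetochore, was higher, with 8.12, 8.05, 8.25 and 8.14 in Pou5f1 RNAi cells, against 7.70, 7.82, 7.86, 7.81 and 7.87 in vector cells. All 4 Pou5f1 RNAi arrays were above the vector arrays, and the difference was 0.33 ± 0.07 (limma adjusted p = 0.00125). Its partner Nuf2 and the large kinetochore proteins Cenpe and Cenpf lay between -0.08 and 0.09 and were not called.

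The motors and midzone proteins held the most lower genes, 5 of 7, with 1 higher. Nusap1, which bundles microtubules around chromosomes, had 8.75, 8.79, 8.84 and 8.79 in Pou5f1 RNAi cells, against 9.51, 9.41, 9.60, 9.71 and 9.76 in vector cells. The gap between the groups was wider than the spread of either, and the difference was -0.81 ± 0.08 (limma adjusted p = 7.8e-08). Kif11 (Eg5), the motor that pushes spindle poles apart, had 7.88, 7.92, 8.17 and 7.95 in Pou5f1 RNAi cells, against 8.37, 8.49, 8.60, 8.56 and 8.56 in vector cells. It fell by 0.54 ± 0.08 without overlap (limma adjusted p = 7.9e-06).

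The other 3 lower genes of this class work in cytokinesis or at the kinetochore. Ect2, the exchange factor that sets the cleavage plane, had 9.20, 9.27, 9.21 and 9.03 in Pou5f1 RNAi cells, against 9.81, 9.66, 9.73, 10.06 and 9.73 in vector cells, a difference of -0.62 ± 0.09 (limma adjusted p = 5.41e-06). Kif23, the midzone motor that binds Ect2's activator, had 8.40, 8.30, 8.49 and 8.49 in Pou5f1 RNAi cells, against 8.91, 9.08, 8.97, 8.81 and 8.96 in vector cells, a difference of -0.53 ± 0.07 (limma adjusted p = 7.46e-06). Neither gene had overlapping arrays. Kif2c (MCAK), which removes tubulin from microtubule ends, was lower by less, at -0.27 ± 0.09 (limma adjusted p = 0.0203), and 4 of 22 other settings did not call it. Prc1, the protein that crosslinks the midzone, was the higher one, with 9.47, 9.42, 9.51 and 9.49 in Pou5f1 RNAi cells, against 8.88, 9.05, 9.08, 9.28 and 9.36 in vector cells. Its Pou5f1 RNAi arrays sat just above the vector range, at 0.34 ± 0.10 (limma adjusted p = 0.0105).

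Of the anaphase genes, Ube2c, the ubiquitin-conjugating enzyme of the anaphase-promoting complex, was lower and Pttg1 was higher. Ube2c had 10.82, 10.71, 10.84 and 10.81 in Pou5f1 RNAi cells, against 11.16, 11.28, 11.39, 11.33 and 11.34 in vector cells, with no overlap and a difference of -0.50 ± 0.07 (limma adjusted p = 9.04e-06). Pttg1 had 12.12, 12.12, 12.20 and 12.23 in Pou5f1 RNAi cells, against 11.62, 11.61, 11.63, 11.83 and 11.77 in vector cells. Here the Pou5f1 RNAi arrays were all above the vector arrays, at 0.47 ± 0.08 (limma adjusted p = 7.3e-05). Espl1 (separase), the protease that Pttg1 holds back, was at -0.24 ± 0.09 and did not pass (limma adjusted p = 0.0565).

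Chromosome structure genes were lower in 3 of 4 cases. Top2a, the topoisomerase that untangles sister DNA, had 10.77, 10.76, 10.81 and 10.62 in Pou5f1 RNAi cells, against 11.18, 11.12, 11.29, 11.53 and 11.45 in vector cells. It fell by 0.57 ± 0.09, with no overlap (limma adjusted p = 2.49e-05). The condensin subunits Smc2 and Ncapd2 were lower by smaller amounts, -0.28 ± 0.09 and -0.24 ± 0.08 (limma adjusted p = 0.0173 and 0.0218). The Ncapd2 call was lost in 5 of 22 other settings, among them the median of all its probe sets. The Smc2 call was lost in 2, without vector replicate 4 or Pou5f1 RNAi replicate 4. The condensin ATPase Smc4 was at 0.10 ± 0.20, and its vector arrays ran between 10.22 and 11.20, with replicates 4 and 5 low. A second Smc4 probe set was called higher (0.23 ± 0.07, limma adjusted p = 0.0111).

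A second probe set brighter than the median probe set of the array was present for 23 members. Of the 13 among them called after Pou5f1 RNAi, 9 were called the same way by the second probe set and 0 the opposite way. After Nanog RNAi the second set called 2 of 4 the same way, and between the knockdowns 5 of 10, again with 0 opposite. Among members not called by the set used, a second set was called with the other sign for Smc4 after Nanog RNAi. The same held for Cenpf and Smc4 between the knockdowns. Per array, the median member lay 0.06 to 0.15 log2 units below its own mean over the 14 arrays in all 4 Pou5f1 RNAi arrays, while it ran from -0.03 to 0.16 in Nanog RNAi and from -0.07 to 0.17 in vector arrays. Replicates 4 and 5 were the highest arrays of both groups, at 0.09 and 0.16 in Nanog RNAi and 0.13 and 0.17 in vector arrays.

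After Nanog RNAi, 6 of 39 members were lower (15.4%, against 8.77% of all genes and 13.9% of those at least as bright as the dimmest member). Another 2 were higher (5.13%, against 12.1% and 21.2%). The share of lower members was near the 13.9%, and the share of higher members was below the 21.2%. The median difference was 0.03 over the members and -0.02 over all genes. The vector arrays are the same ones used for Pou5f1 RNAi, so both comparisons share their control.

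Nusap1, the member furthest from vector cells, had 8.62, 8.64, 8.46, 8.72 and 8.57 in Nanog RNAi cells, against 9.51, 9.41, 9.60, 9.71 and 9.76 in vector cells. It was 2-fold lower (-0.997 ± 0.077, limma adjusted p = 8.31e-09), and no array overlapped. Ccnb2, cyclin B2, had 9.69, 9.75, 9.70, 9.84 and 9.82 in Nanog RNAi cells, against 10.05, 9.96, 10.14, 10.24 and 10.18 in vector cells. It fell by 0.35 ± 0.07 without overlap (limma adjusted p = 0.00139). Kif11 had 8.20, 8.19, 8.18, 8.21 and 8.26 in Nanog RNAi cells, all below the vector arrays given above, at -0.31 ± 0.07 (limma adjusted p = 0.00422).

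Plk4 had 8.59, 8.50, 8.53, 8.39 and 8.55 in Nanog RNAi cells, against 8.69, 8.78, 8.86, 8.85 and 8.88 in vector cells. These groups did not overlap, and Plk4 was lower by 0.30 ± 0.07 (limma adjusted p = 0.00507), opposite to its small rise after Pou5f1 RNAi. Bub1 (10.03, 9.98, 10.05, 9.90 and 9.97 in Nanog RNAi cells) was just below the vector arrays, at -0.23 ± 0.07 (limma adjusted p = 0.032), and Top2a was lower at -0.29 ± 0.08 (limma adjusted p = 0.0196). The Bub1 call was lost in 8 of 22 other settings, and the Plk4 and Kif11 calls with the median of all probe sets. The Top2a arrays overlapped, and its call was lost without vector replicate 4 or Nanog RNAi replicate 1. Cdc20, the activator of the anaphase-promoting complex, was higher, with 11.31, 11.31, 11.41, 11.54 and 11.45 in Nanog RNAi cells, against 10.97, 10.95, 10.88, 11.27 and 11.28 in vector cells (0.33 ± 0.09, limma adjusted p = 0.00903). Kif20a, a midzone motor, was higher by 0.21 ± 0.07 (limma adjusted p = 0.039), which 9 of 22 other settings did not call.

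The remaining checkpoint genes were not called after Nanog RNAi: Ttk was at 0.07 ± 0.07, Mad2l1 at 0.10 ± 0.07, Bub3 at 0.03 ± 0.07 and Bub1b at -0.11 ± 0.08. Plk1 was at -0.06 ± 0.07, Cdk1 at 0.11 ± 0.07 and Aurkb at -0.03 ± 0.08.

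**Figure D3:**
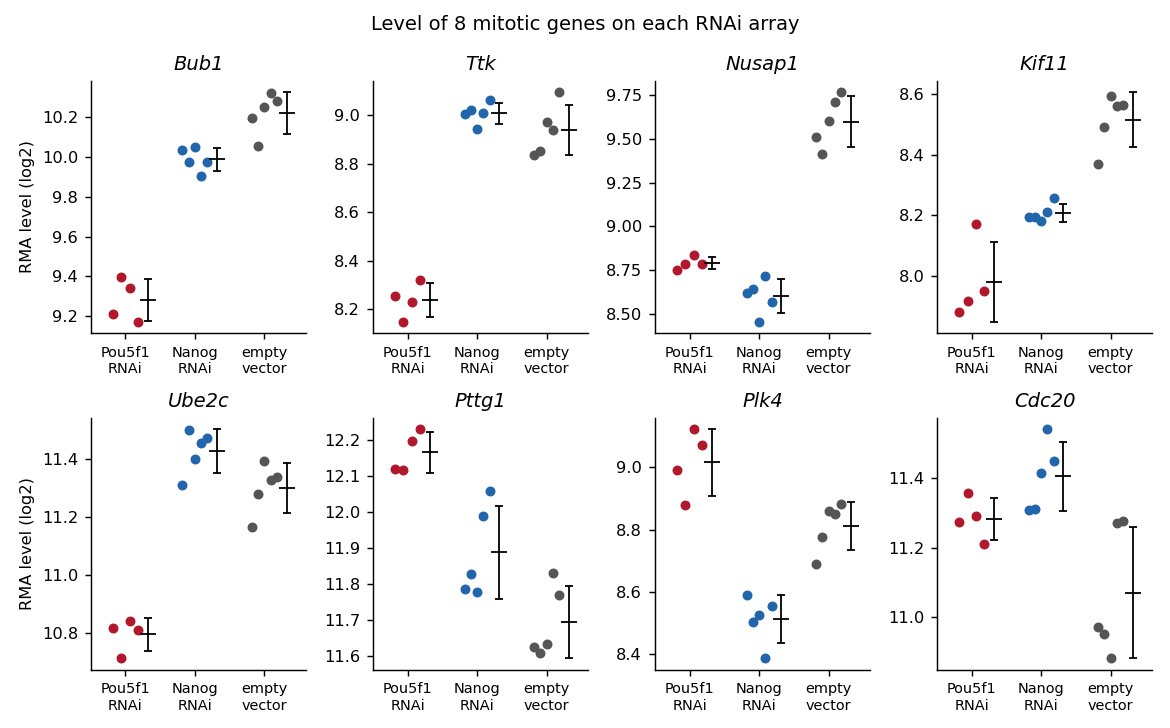
Level (vertical axis, log2 RMA units; each panel has its own range) of 8 mitotic genes on every RNAi array, with the mean and SD beside the points. Bub1, Ttk and Ube2c stood apart on the 4 Pou5f1 RNAi arrays, Nusap1 was low in both knockdowns, and Plk4 was higher than vector after Pou5f1 RNAi and lower after Nanog RNAi.

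Set directly against Nanog RNAi, Pou5f1 RNAi gave 15 lower members (38.5%, against 18.6% of all genes and 31.9% of those at least as bright as the dimmest member). It gave 4 higher ones (10.3%, against 18.8% and 29.7%). Nanog itself was low in both groups, and 0.41 ± 0.09 higher with Pou5f1 RNAi (limma adjusted p = 0.00066). The checkpoint kinase Ttk differed most, at 8.26, 8.15, 8.23 and 8.32 in Pou5f1 RNAi cells, against 8.94 to 9.06 in Nanog RNAi cells (median 9.01). The difference was -0.77 ± 0.07 (limma adjusted p = 3.41e-08). Bub1 was at -0.71 ± 0.08 and Ube2c at -0.63 ± 0.07 (limma adjusted p = 2.43e-07 and 5.09e-07), and no array of either gene overlapped.

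Aurka (-0.56 ± 0.08), Cenpa (-0.54 ± 0.09), Aurkb (-0.53 ± 0.08), Kif23 (-0.48 ± 0.07), Ect2 (-0.46 ± 0.09) and Espl1 (-0.44 ± 0.09) were also lower with Pou5f1 RNAi. So were Kif2c, Top2a, Birc5, Mad2l1, Ccna2 and Kif11, between -0.29 and -0.23. Mad2l1 was called in this comparison alone of the 3, at 10.28, 10.23, 10.27 and 10.11 in Pou5f1 RNAi cells, against 10.43, 10.45, 10.40, 10.56 and 10.56 in Nanog RNAi cells (limma adjusted p = 0.014). Plk4 was the most changed of the higher genes, with 8.99, 8.88, 9.12 and 9.07 in Pou5f1 RNAi cells, all above the Nanog RNAi arrays, at 0.50 ± 0.08 (limma adjusted p = 1.76e-05). Prc1, Pttg1 and Ndc80 were higher by 0.20 to 0.29, but Ndc80 was not called in 13 of 22 other settings (10 of them leaving out 1 array) and Prc1 in 7 (6 of them leaving out 1 array). The Cenpa call was lost with the median of all its probe sets, where the difference was -0.05 (adjusted p = 0.813). Kif2c, Kif11 and Pttg1 also lost their calls with that median. Nusap1 did not differ past the test between the knockdowns (0.19 ± 0.08, limma adjusted p = 0.0945).

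Genes of the wider pathway were listed by name and counted in the same fit. Of 94 other mitotic genes, 31 were lower and 20 higher after Pou5f1 RNAi, and 9 were lower and 15 higher after Nanog RNAi. Of all genes, 19.5% were lower and 20.6% higher after Pou5f1 RNAi, and 8.77% and 12.1% after Nanog RNAi. Among genes at least as bright as the dimmest member these shares were 31.4% and 33.5%, and 13.9% and 21.2%. The largest falls after Pou5f1 RNAi were in Fbxo5 (Emi1, an inhibitor of the anaphase-promoting complex, -1.38 ± 0.21), Cenpp (a centromere protein, -1.27 ± 0.08), Haspin (a centromeric histone kinase, -1.13 ± 0.20) and Spc24 (a subunit of the Ndc80 complex, -0.97 ± 0.08). The largest rises were in Numa1 (spindle pole assembly, 0.69 ± 0.08), Kifc1 (a minus-end motor, 0.67 ± 0.11), Wee1 (the kinase that holds Cdk1 inactive, 0.66 ± 0.07) and Stil (centriole assembly, 0.64 ± 0.08). After Nanog RNAi, Cep55 (abscission, -0.64 ± 0.08) and Kifc1 (0.69 ± 0.11) were at the ends.

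Of the DNA replication genes, 30 of 37 were lower and 0 higher after Pou5f1 RNAi, with a median of -0.44. For the mitotic genes these were 17 and 5 of 39 and -0.16, and 19.5% and 20.6% of all genes were called. Dut (dUTPase, -1.39 ± 0.07), Pola1 (the catalytic subunit of polymerase alpha, -1.30 ± 0.08), Gins1 (helicase assembly, -1.07 ± 0.11) and Lig1 (DNA ligase, -1.01 ± 0.07) led the replication genes. After Nanog RNAi, 4 of the 37 were lower (Pola1, Rfc4, Gmnn and Mcm6) and 1 was higher (Orc6), where 8.77% and 12.1% of all genes were. Among 12 cohesin genes, 3 were lower and 2 higher after Pou5f1 RNAi (median -0.02), and 3 and 1 after Nanog RNAi (median -0.05). Of these, Esco2, the acetyltransferase that closes cohesin in S phase, was at -1.65 ± 0.09 log2 units after Pou5f1 RNAi. It was at -0.29 ± 0.09 after Nanog RNAi, and both were past the test.

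In the chemical treatments the values are log ratios of treated over untreated cells, whose base the sources used here do not give and which are read as log2. Averaged over days 2, 4 and 6 (6 arrays), 2 of 36 members were lower and 1 higher with RA, 1 lower and 2 higher with DMSO, and 3 lower and 1 higher with HMBA. Over all genes, 10.5% were called lower and 17% higher with RA, 8.6% and 10.7% with DMSO, and 12.8% and 15.5% with HMBA, against 5.56% and 2.78%, 2.78% and 5.56%, and 8.33% and 2.78% of the members. All 6 shares of members were below the background. The median member was at -0.10 with RA, 0.06 with DMSO and -0.05 with HMBA, and the median of all genes was at 0.01, 0.02 and 0.00. Pou5f1 itself was lower with all 3 (-1.93 ± 0.11, -0.62 ± 0.11 and -1.47 ± 0.11). Of the 8 ES cell markers, a list that includes Pou5f1, 7, 7 and 8 were lower. With RA 4 of 7 trophectoderm markers and 3 of 6 fibroblast markers were higher, and 0 of either were lower. With DMSO 1 of each list was higher and 1 fibroblast marker was lower. With HMBA 3 and 2 were higher and 1 trophectoderm marker was lower. The part of these markers in the results was not tested.

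Mad2l1 was called lower and Plk1 higher with every treatment. With dye pairs averaged, so that the 3 days are the replicates, Plk1 was not called with any treatment and Mad2l1 was not called with DMSO. Leaving out a single array ended the Plk1 call with RA for 4 arrays, and the Mad2l1 call for 3 arrays of RA, 5 of DMSO and 1 of HMBA. With HMBA, Mad2l1 ran at -0.14, -0.34 and -0.60 on the Cy3 arrays of days 2, 4 and 6, and at -0.21, -0.58 and -0.76 on their Cy5 partners. All 6 arrays were below 0, and the mean was -0.44 ± 0.11 (limma adjusted p = 0.0101). With RA, its values ranged between -0.82 and 0.09 with 5 of 6 arrays below 0, and with DMSO between -0.60 and 0.04, again with 5 of 6. The means were -0.42 ± 0.11 (limma adjusted p = 0.0134) and -0.39 ± 0.11 (limma adjusted p = 0.0272).

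Plk1 with DMSO was 0.14, 0.71 and 0.99 on the Cy3 arrays of days 2, 4 and 6, and 0.14, 0.92 and 0.65 on the Cy5 arrays. All 6 were above 0, with the values of days 4 and 6 well over those of day 2, and the mean was 0.59 ± 0.09 (limma adjusted p = 0.000565). With HMBA it was 0.35, 0.95 and 0.24 on the Cy3 arrays and -0.14, 0.85 and 0.17 on the Cy5 arrays, highest at day 4 in both dyes (0.41 ± 0.09, limma adjusted p = 0.00518). With RA the Cy3 arrays gave 0.00, 0.49 and 0.64 and the Cy5 arrays -0.27, 0.54 and 0.40 (0.30 ± 0.09, limma adjusted p = 0.0278). In the knockdowns, where Plk1 came from other arrays and another control, it was at -0.20 after Pou5f1 RNAi and -0.06 after Nanog RNAi.

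The other 4 genes called were past the test with 1 treatment each in this fit, which called 0 members different between treatments. Ttk with HMBA was -0.59, -0.10 and -0.40 on the Cy3 arrays and -0.83, -0.80 and -1.24 on the Cy5 arrays, all below 0, with a mean of -0.66 ± 0.18 (limma adjusted p = 0.0187). Pttg1 with HMBA was also below 0 on all 6 arrays, at -0.24, -0.08 and -0.58 in Cy3 and -0.40, -0.36 and -0.71 in Cy5, with a mean of -0.40 ± 0.11 (limma adjusted p = 0.0226). Kif11 with RA was -0.46, -0.57 and -0.79 in Cy3 and -0.34, -0.11 and -0.35 in Cy5, with a mean of -0.43 ± 0.11 (limma adjusted p = 0.0136). Ncapd2 with DMSO was above 0 on 5 of 6 arrays and averaged 0.73 ± 0.20 (limma adjusted p = 0.0244). The Pttg1 call was lost in 6 of 25 other settings, 5 of them leaving out 1 array. Leaving out 1 array also ended the Ttk and Ncapd2 calls for 3 arrays each, and the Kif11 call for 2. With dye orientation in the fit, described next, Ttk was called lower with all 3 treatments, Kif11 and Pttg1 lower with RA and HMBA, and Ncapd2 higher with DMSO and HMBA.

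The ratios of these genes also differed with dye orientation. The median member was higher on the array with the sample in Cy3 than on its Cy5 partner in all 9 treatment-days, between -0.05 and 0.43 against -0.48 and -0.06. The medians of all genes lay between 0.02 and 0.08 on the Cy3 arrays and between -0.04 and 0.02 on the Cy5 arrays. Cenpe was 1.74 higher in Cy3 on average, Cenpf 1.62, Top2a 1.44 and Bub1 1.41, while Ube2c was at -1.03 in the same difference. Bub1 with RA shows it: 0.47, 0.24 and 0.65 with the sample in Cy3, but -1.18, -0.86 and -0.71 in Cy5. Averaging a dye pair cancels such an offset in the mean, but leaves it in the spread of a fit without a dye term.

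**Figure D4:**
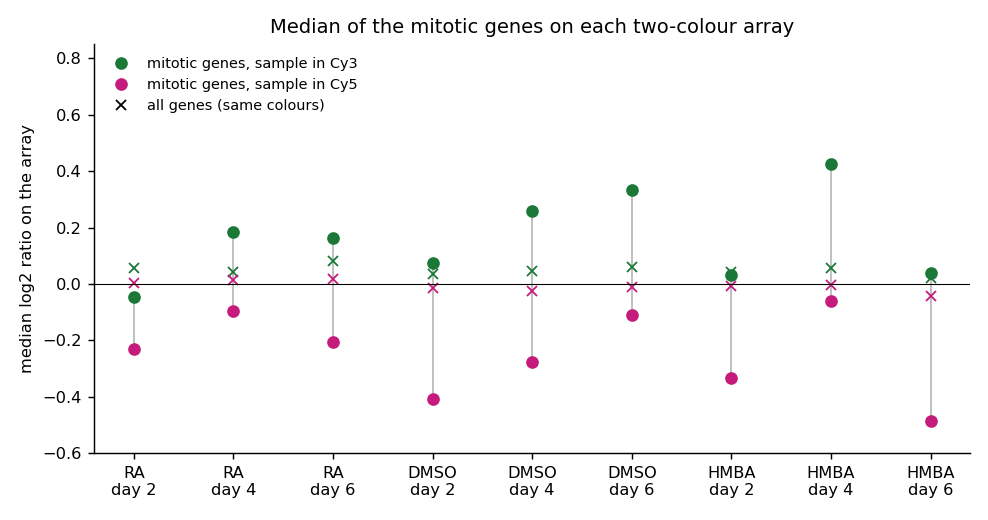
Median log2 ratio (vertical axis) of the 36 mitotic genes (circles) and of all genes (crosses) on each two-colour array, by treatment and day, with the sample in Cy3 (green) or Cy5 (pink). The Cy3 circle lies above its Cy5 partner in all 9 pairs, while the crosses stay between -0.04 and 0.08.

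Since arrays of equal dye orientation deviated together in 36 of 36 comparisons, the fit was repeated with dye orientation as a block (the dye term). It then called 10 members lower and 3 higher with RA (22.8% and 29.9% of all genes were called), 5 and 5 with DMSO (20.2% and 25%), and 9 and 5 with HMBA (25.5% and 27.4%). The lower members were 27.8%, 13.9% and 25% of the set and the higher ones 8.33%, 13.9% and 13.9%, so only the share lower with RA was above its background. The dye term kept Mad2l1 and Plk1 with all 3 treatments and added Smc2 and Ect2, both lower with all 3. Smc2, the core condensin ATPase, was at -0.45 ± 0.09 with RA, -0.67 ± 0.09 with DMSO and -0.70 ± 0.09 with HMBA (limma with dye term, adjusted p = 0.000436, 9.7e-06 and 3.79e-06). On its Cy5 arrays Smc2 lay between -1.67 and -0.76, and on its Cy3 arrays between -0.27 and 0.39. A second Smc2 probe was at -0.31 ± 0.10 with DMSO and -0.33 ± 0.10 with HMBA (limma with dye term, adjusted p = 0.0247 and 0.0135). With RA that probe was at -0.23 ± 0.12 and was not called (limma with dye term, adjusted p = 0.129). Ttk was lower with all 3 as well, at -0.26 with RA, -0.47 with DMSO and -0.66 with HMBA.

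Under the dye term Nusap1 was lower with RA (-0.49 ± 0.07, limma adjusted p = 1.24e-05) and with HMBA (-0.29 ± 0.07, limma adjusted p = 0.00184), and Top2a was lower with RA (-0.39 ± 0.08, limma adjusted p = 0.000518). A second Top2a probe ran the opposite way, at 0.39 ± 0.09 with RA (limma with dye term, adjusted p = 0.0018), so the direction of Top2a with RA depends on the probe. Compared directly, RA was below DMSO for 6 members under the dye term (9.32% of all genes): Ncapd2, Top2a, Cdca8, Pttg1, Nusap1 and Ube2c, between -0.62 and -0.37. The second Top2a probe was again called the other way, at 0.45 ± 0.14 for RA against DMSO (adjusted p = 0.0274). RA was above HMBA for Ttk and Kif20a (10.5% of all genes), and DMSO above HMBA for Pttg1 (4.83%). Without the dye term 0 of 36 members passed in any of these 3 comparisons (3.79% of all genes did, counting the 3 together), while 4 at an unadjusted p under 0.05 were lower with RA than with DMSO and 1 was higher with DMSO than with HMBA.

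Of the checkpoint and kinase genes not called on average without the dye term, Bub1 was at -0.23 ± 0.36 with RA, -0.06 ± 0.36 with DMSO and -0.31 ± 0.36 with HMBA. Bub3 was above 0 on all 6 RA arrays (0.18 ± 0.09) and all 6 DMSO arrays (0.27 ± 0.09), and Bub1b was between -0.12 and 0.12. Single arrays of Bub1b ran from -0.52 to 0.55 over the 18 arrays. Cdk1 was between 0.01 and 0.14 and Aurkb between -0.01 and 0.12, with both signs among the arrays of each treatment; Aurkb with DMSO rests on 5 arrays. With the dye term Bub1 was called lower with HMBA (-0.31 ± 0.09, limma adjusted p = 0.0107) and Bub3 higher with DMSO (0.27 ± 0.08, limma adjusted p = 0.0112).

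By day, the median member was below untreated cells on day 2 of each treatment. The median was -0.21, 0.02 and -0.06 on days 2, 4 and 6 of RA, -0.13, 0.17 and 0.12 with DMSO, and -0.23, 0.18 and -0.20 with HMBA. Without the dye term, 2 calls were lower and 6 higher over the 9 treatment-days, where 4.01% and 5.97% of calls over all genes were lower and higher. The lower ones were Mad2l1 on day 6 of RA (-0.67, adjusted p = 0.033) and of HMBA (-0.68, adjusted p = 0.035), where 5.25% and 6.86% of all genes were called lower. Of the higher ones, 4 were Plk1: on day 6 of RA (0.52, with 10.8% of all genes called higher), days 4 and 6 of DMSO (0.82 on both, with 4.01% and 6.52%) and day 4 of HMBA (0.90). Tpx2 (0.55) and Kif2c (0.53) were the others, both on day 4 of HMBA, when 8.83% of all genes were called higher.

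With the dye term the balance over single treatment-days turned to 46 lower and 18 higher of 324 (14.2% and 5.56%, against 13.4% and 16.8% over all genes). The share lower was near that of all genes, and the share higher was below it. RA had 17 lower and 4 higher, DMSO 8 and 6, and HMBA 21 and 8. Nusap1, Smc2 and Ttk were lower on 6 of the 9 treatment-days each, and Ect2 and Mad2l1 on 5. The Smc2 count rests on its probe with most values. Plk1 was higher on 5 and Ncapd2 on 3.

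With HMBA, day 4 was the highest day for most members. On day 4, 30 of 36 members had their highest mean of the 3 days, against 20 with RA and 16 with DMSO. All members share the 2 arrays of a day, and the share of all genes highest on day 4 was not counted. Tpx2, which activates Aurka on spindles, was -0.38, 0.42 and -0.02 on the Cy3 arrays and -0.38, 0.67 and -0.25 on the Cy5 arrays of days 2, 4 and 6. Both dyes put day 4 above 0 and days 2 and 6 below. Cdk1 followed the same order, with 0.12, 1.08 and 0.47 in Cy3 and -0.55, 0.08 and -0.38 in Cy5.

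Day 4 was then set against the mean of days 2 and 6, a contrast chosen after these values were seen. With HMBA the difference was above 0 for 33 of 36 members, with a median of 0.36, against 0.02 over all genes. Without the dye term 0 members passed (5 were higher at an unadjusted p under 0.05), where 0.0831% of all genes were called higher. With the dye term Tpx2 (0.80), Plk1 (0.75), Kif2c (0.69) and Kif20a (0.64) were higher, where 1.39% of all genes were. For RA and DMSO 0 members passed in either fit (0.0166% of all genes did without the dye term, counting both together, and 0 members at an unadjusted p under 0.05; with it 2 were lower and 5 higher for RA and 3 higher for DMSO at that level), and the medians were 0.15 and 0.11. Day 4 of DMSO included an array with 11257 values, where the other 17 arrays had 15679 to 20019.

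**Figure D5:**
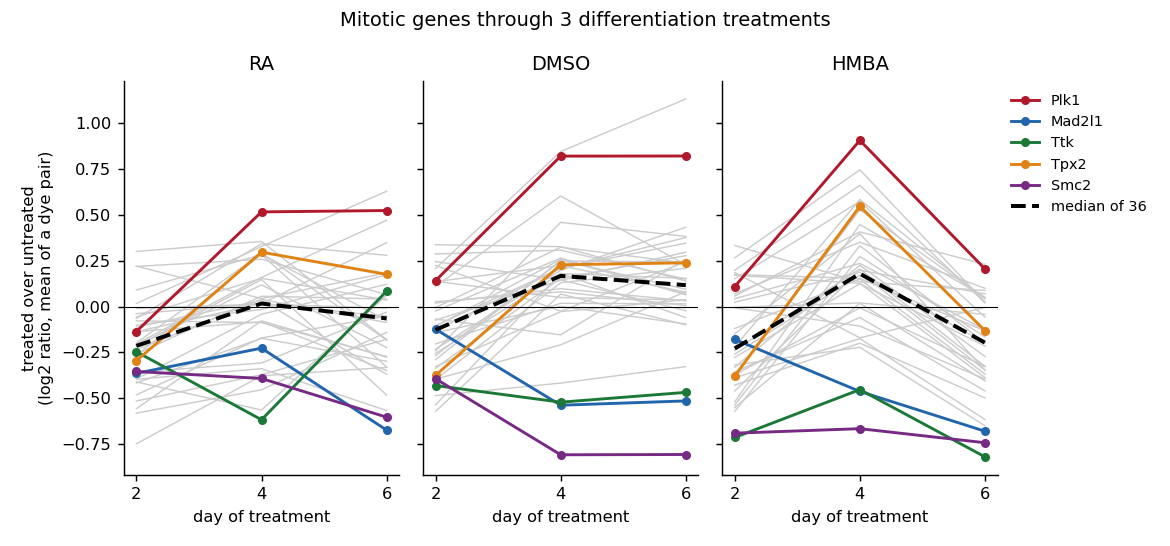
Log2 ratio of treated over untreated cells (vertical axis, mean of a dye pair) on days 2, 4 and 6 of each treatment for 36 mitotic genes (grey), with 5 named genes in colour and the median dashed. The median was 0.18 on day 4 of HMBA, against -0.23 on day 2 and -0.20 on day 6, while Mad2l1 and Smc2 stayed below 0 at every day.

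Between day 2 and day 6, 0 members passed without the dye term in any treatment, where 1.4% of all genes did over the 3 treatments (2 were higher with RA, 4 with DMSO and 0 with HMBA at an unadjusted p under 0.05). With it, Kif2c (0.67) and Plk1 (0.66) were higher on day 6 of RA, where 7.39% of all genes were. On day 6 of DMSO, Ncapd2 (0.92), Nusap1 (0.69), Plk1 (0.68), Pttg1 (0.66) and Tpx2 (0.61) were higher, where 6% of all genes were. No member passed with HMBA, and the difference between treatments in this day effect called 0 members in either fit (0.116% of all genes without the dye term over the 3 pairs, and by pair 0 or 1 at an unadjusted p under 0.05 without the dye term and 1 to 8 with it).

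Genes of the wider pathway were counted in the treatments as well. Of 77 other mitotic genes, 8 were lower and 6 higher with RA, 6 and 3 with DMSO, and 11 and 5 with HMBA. With the dye term these became 26 and 13, 22 and 13, and 32 and 17. Of all genes, 10.5% were lower and 17% higher with RA, 8.6% and 10.7% with DMSO, and 12.8% and 15.5% with HMBA. The dye term raised these shares to 22.8% and 29.9%, 20.2% and 25%, and 25.5% and 27.4%. They are also the background for the replication and cohesin genes below. Cep55 was lower with all 3, at -0.74 ± 0.11, -0.93 ± 0.11 and -1.08 ± 0.11. Of 34 DNA replication genes, 5, 2 and 7 were lower and 2, 1 and 2 higher with RA, DMSO and HMBA. With the dye term 17, 12 and 18 were lower and 4, 2 and 4 higher. Gins1 was lower with each (-0.44, -0.76 and -0.86), while Cdc45, a partner of the same helicase, was higher with each (0.85, 0.63 and 1.67). Among 8 cohesin genes, 2 were lower and 0 higher with RA, 1 and 2 with DMSO, and 2 and 0 with HMBA. Esco2 was lower with each, at -1.56 ± 0.22, -1.20 ± 0.22 and -1.71 ± 0.22.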

How the data were processed

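RNA of mouse E14 cells was measured on 14 one-colour arrays and 18 two-colour arrays. The one-colour values are log2 levels that the authors made with RMA, per the submitters' processing notes, for which no software version is stated there. The two-colour values are log ratios as the authors deposited them, turned to sample over untreated on both dye orientations per the labels; no source used here gives the background correction, the normalization or the base of the log, and the base was taken as log2. Array values carry no read depth, and the number of arrays limits the precision.

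Groups were compared with limma 3.58.1 in R 4.3.3 on all 45037 non-control probe sets (3 RNAi groups in 1 fit, 11 residual degrees of freedom) and on the 16657 of 21106 two-colour probes with a value in every treatment-day (9 groups in 1 fit, 9 residual degrees of freedom where no value was missing). P-values were adjusted by Benjamini-Hochberg over all of them, and a call is an adjusted p under 0.05. Each gene was read from its brightest probe set, or on two-colour arrays from the probe with most values, annotated to that symbol alone. The script was tested on simulated data. Motifs were counted with Python 3.11.15 and pandas 2.3.3, and plots drawn with matplotlib 3.10.9.

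On the two-colour arrays equal replicate numbers deviated together (correlation over 0.1 in 36 of 36 pairs), and the number is the dye orientation given by the labels. The members and gene lists were chosen with earlier results of these data known. Values on every array are given for the called members with the largest changes and for 9 set genes (Ccnb1, 1 of them, was not analysed here), and up to 4 genes each way from other lists. Alternatives changed the normalization, the filter on dim probe sets, the probe set rule, the variance model, the arrays in the fit and the block. Genes with probes shared between symbols were left out.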

Additional observations from a re-analysis of the deposited data

Results flagged for a closer look

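Of 117 sets of 4 or 5 RNAi arrays (39 genes in 3 groups), 5 held an array far from the others, and chance flags about 1 in 20 such sets (6 here). The number after each gene is the gap to the nearest array divided by the range of the group. Cdc25b (0.876) was at 7.11 on Nanog RNAi replicate 5, against 6.005 to 6.143 on the other 4 arrays. On the same array Nek2 (0.711) was at 9.16, against 8.93 to 8.99. Top2a (0.724) was at 11.17 on Nanog RNAi replicate 4, against 10.95 to 11.01. Cdc25c (0.850) was at 6.54 on Pou5f1 RNAi replicate 2, against 6.76 to 6.80. Aurkb (0.773) was at 7.48 on vector replicate 2, against 7.65 to 7.70, and it stayed lower after Pou5f1 RNAi in all 22 other settings.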

How the results depend on the processing

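Of the members called after Pou5f1 RNAi, Bub1, Bub1b, Ttk, Aurka, Aurkb, Birc5, Ndc80, Kif11, Kif23, Nusap1, Prc1, Ect2, Ube2c, Pttg1 and Top2a were called in all 22 other settings. Bub3 turned to -9.95e-05 with the median of all probe sets. With Pou5f1 RNAi 5 members were higher, and 3 when only the 2 groups were fitted. With Nanog RNAi 2 were higher, but 4 with the replicate block, 4 with quantile normalization, 5 with an intensity trend and 1 with only the 2 groups, while the 6 lower became 3 with the median of all probe sets. Between the knockdowns the 4 higher became 2 with median centring. On the RNAi arrays the labels give equal numbers to arrays of different groups. Equal numbers correlated above 0.1 in 4 of 5 pairs between Nanog RNAi and vector arrays (the fifth was at 0.089), 1 of 4 between Pou5f1 RNAi and vector arrays, and 0 of 4 between the knockdowns. With replicate number as a block, Cdca8 (adjusted p = 0.0051) was called higher after Pou5f1 RNAi, and Cenpa (adjusted p = 0.043) and Pttg1 (adjusted p = 0.045) after Nanog RNAi. Leaving out 1 array at a time gave 13 to 18 lower and 3 to 6 higher for Pou5f1 RNAi (the higher count moved most without vector replicates 1, 2 or 3 or Pou5f1 RNAi replicate 3), 4 to 6 and 1 to 2 for Nanog RNAi (without vector replicates 1, 3 or 4 or Nanog RNAi replicates 1 to 4), and 12 to 16 and 2 to 4 between the knockdowns (without Nanog RNAi replicates 1 to 3 or Pou5f1 RNAi replicates 1, 3 or 4).

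On the two-colour arrays the replicate block (dye orientation) gave 10 lower and 3 higher with RA, 5 and 5 with DMSO, 9 and 5 with HMBA, 6 lower in RA against DMSO, 2 higher in RA against HMBA and 1 higher in DMSO against HMBA. It gave 2 and 5 higher on day 6 against day 2 of RA and DMSO, 4 higher on day 4 of HMBA, and 46 lower and 18 higher over single treatment-days. With the block and without the sparse DMSO array, an alternative chosen after seeing the data, these were 11 and 3, 5 lower, 9 and 5, 5, 2, 1, 2, 5, 4, and 45 and 19, and 1 member was higher in the treatment difference of day 6 against day 2. Scale normalization gave 0 higher with RA, and 1 lower and 3 higher over single treatment-days. Treatment as the only group gave 0 higher with RA and 0 with HMBA. Dye pairs averaged gave 6 lower and 0 higher with RA, 3 and 1 with DMSO, and 5 and 0 with HMBA. Without 1 array at a time, without the block, the counts were 0 to 2 lower and 0 to 1 higher with RA (least without RA day 4 replicate 1 or 2 or day 6 replicate 1, and for the higher count also day 2 replicate 1), 0 to 1 and 1 to 3 with DMSO (moved without any DMSO array except day 2 replicate 2 for the lower count, and without replicate 2 of any day for the higher), and 0 to 3 and 1 to 1 with HMBA (without replicate 2 of any day). They were 0 to 1 lower in RA against DMSO (without either RA day 2 array), 1 to 8 lower and 2 to 8 higher over single treatment-days, and 0 to 0 elsewhere. The causes were not tested.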

Other observations

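Genes that control mitotic transcription and the first gap phase were also counted. Of 22 regulators of mitotic genes, 6 were lower and 9 higher after Pou5f1 RNAi, and 5 and 6 after Nanog RNAi (limma). Of all genes, 19.5% were lower and 20.6% higher after Pou5f1 RNAi, and 8.77% and 12.1% after Nanog RNAi. Mybl2 (B-Myb), the partner of the MuvB complex, was lower after Pou5f1 RNAi (-0.92 ± 0.07), after Nanog RNAi (-0.34 ± 0.07) and with RA, DMSO and HMBA (-1.45 ± 0.24, -1.61 ± 0.24 and -1.22 ± 0.24). Nfyb, a subunit of NF-Y, was lower after Pou5f1 RNAi (-0.76 ± 0.07), after Nanog RNAi (-0.54 ± 0.07) and with HMBA (-0.9995 ± 0.24). Foxm1, a forkhead activator of mitotic genes, was not called in any of the 5 (0.21 ± 0.11 after Pou5f1 RNAi). The Cdk inhibitor Cdkn1c (p57) was higher by 4.04 ± 0.09 after Pou5f1 RNAi, 1.35 ± 0.09 after Nanog RNAi, 2.54 ± 0.09 with RA and 1.61 ± 0.09 with HMBA, and lower with DMSO (-0.29 ± 0.09). Cdkn1a (p21) was higher by 1.54 ± 0.11 after Pou5f1 RNAi and 0.50 ± 0.10 after Nanog RNAi.

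Of 11 genes of the first gap phase, 6 were lower and 3 higher after Pou5f1 RNAi, and 1 and 3 after Nanog RNAi. The shares over all genes were again 19.5% and 20.6%, and 8.77% and 12.1%. Ccnd1 (cyclin D1) was lower after Pou5f1 RNAi (-2.21 ± 0.10), after Nanog RNAi (-0.89 ± 0.09), with DMSO (-1.05 ± 0.14) and with HMBA (-2.03 ± 0.14). Mycn was lower after Pou5f1 RNAi (-1.85 ± 0.07) and with RA, DMSO and HMBA (-1.20, -1.31 and -1.44), while its relative Myc was higher after Pou5f1 RNAi (1.44 ± 0.10) and Nanog RNAi (0.90 ± 0.09). Ccne2 (cyclin E2) was higher after Pou5f1 RNAi (1.02 ± 0.09) and Nanog RNAi (0.61 ± 0.08).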
